A study of Mus musculus with 40 samples.

Results

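Oocytes taken from large antral follicles were set against oocytes taken from primordial follicles of the mouse. The 16 samples were chosen by the follicle stage in their titles, out of 40 in the series, and comprised 4 samples of each stage on the Affymetrix 430A array and 4 of each on the 430B array. Large antral oocytes came from females at 24 days of age, with 20 oocytes pooled per sample, and primordial oocytes came from females at 2 days of age, with 400 oocytes pooled per sample. All were of the strain labelled SJLB6, the labels name no allele or agent for either group, and total RNA was amplified by a small-sample procedure before hybridisation. The submitters call the 4 replicates biological, and the labels do not say how many animals a pool held or whether the 430A and 430B samples share RNA. Age and the number of oocytes pooled differ with the stage and cannot be told apart from it.

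Primordial follicles are the resting reserve of the ovary, each an oocyte arrested late in meiotic prophase within a few flat granulosa cells. Large antral follicles stand at the end of growth, when the oocyte has built its zona pellucida, has stored the messenger RNA and protein that the early embryo will use, and is able to resume meiosis. A fully grown oocyte holds far more RNA than a resting one. The arrays give relative levels within a fixed total signal, so a lower value can mean fewer copies per cell or the same copies in a larger pool, and these cannot be told apart here.

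Primordial replicates 2, 3 and 4 stand apart from the other arrays in how their values are built. Each behaves as an equal mixture of one array with primordial replicate 1: doubling each and subtracting replicate 1 left 0 negative values among 22526 probe sets on 430A and 0 among 22411 on 430B. The same operation on pairs of large antral samples left 1120 to 1923 negative values on 430A and 1989 to 3500 on 430B. Control probe sets are not in these counts. The Gapdh 5′ control on 430A, at 97.8 in primordial replicate 3 and 270.7 in replicate 1, would turn negative. Between 49.4% and 50.2% of the values in these 3 primordial replicates lay off the grid of 0.1 on which replicate 1 and the large antral samples lie. If they are such mixtures, replicate 1 carries 62.5% of the mean of the deposited primordial values, and the spread among these samples is too small. The doubled and subtracted values are called unmixed below. Results are from deposited values unless unmixed values or both sets are named. The mean correlation of each large antral sample with the others was 0.98 to 0.983 on 430A and 0.923 to 0.927 on 430B. For unmixed primordial samples it was 0.891 to 0.931 on 430A and 0.796 to 0.806 on 430B (log2 signals across probe sets).

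All 9 oocyte markers on the arrays (Zp2, Zp3, Gdf9, Ddx4, Dazl, Figla, Nobox, Nlrp5 and Ooep) passed the filter on low signal. Their summed scaled signal ranged from 128407 to 149585 in large antral samples and from 101084 to 125765 in primordial samples, or to 154273 with unmixed values, which overlap. Of 20 markers of granulosa and cumulus cells, 17 were tested, 7 rose and 1 (Npr2) fell. Their summed signal was 5981 to 7064 in large antral samples against 3677 to 3957 in primordial samples. The share rising, 41.2%, stood beside 28.4% of all genes. Of 8 endothelial markers 4 rose and 0 fell (2 and 0 unmixed), and of 7 of surface epithelium 3 rose and 2 fell (3 and 2 unmixed). Of 8 of theca and stroma 1 rose and 3 fell (1 and 3 unmixed), and of 7 of blood and immune cells 1 rose and 1 fell (0 and 1 unmixed). Amh, the hormone of growing granulosa cells, did not pass the filter, and the follicle-stimulating hormone receptor Fshr gave 144.4 to 232.3 in large antral samples against 179.3 to 207.8 in primordial samples. On 430A the 3′ to 5′ ratio of the actin control, a sign of how far amplification or RNA quality favoured the 3′ end, was 5.93 to 17.9 in large antral samples and 3.42 to 5.43 in primordial samples. The same ratio of the Gapdh control was 4.78 to 5.62 in large antral samples and 3.35 to 6.82 in primordial samples, so that the groups overlapped. The 18S ribosomal RNA control gave 446.5 to 627.8 in large antral samples against 3704 to 5133 in primordial samples. The spiked control cre gave 9512 to 11458.5 in large antral samples against 20525 to 25745 in primordial samples. Another spiked control, bioD, gave 1622 to 1982.5 in large antral samples against 3263 to 4108 in primordial samples. These control values are deposited signals, not scaled here. The part of these differences in the results below was not tested.

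A probe set is called changed where the adjusted p of limma fitted to all 5 stages is below 0.05, on log2 of the scaled signal plus 32. Of 15842 probe sets tested on 430A, 4749 rose and 5486 fell, so that 64.6% were called. Of 19115 tested on 430B, 2640 rose and 4702 fell, or 38.4%. With 1 probe set a gene, 56.7% of 15436 genes were called, 28.4% rising and 28.3% falling, and with unmixed values 49.8% were called, 26.6% rising and 23.1% falling. Over probe sets, unmixed values gave calls for 58.0% on 430A and 29.9% on 430B. Both sets of values gave a call for 53.2% and 27.8%, and for 45.5% and 23.3% the groups also did not overlap. Rises with both and no overlap made up 22.0% on 430A and 9.77% on 430B, and falls 23.5% and 13.6%. Deposited changes of at least 2-fold were 15.5% rising and 18.5% falling on 430A, and 9.19% rising and 17.6% falling on 430B. The split between rises and falls depends on scaling: rises made up 46.4% of calls on 430A and 36.0% on 430B, against 55.6% and 58.1% when arrays were scaled to a common median, and 50.5% and 49.2% after quantile normalization. The median log2 change of all probe sets was -0.07 on 430A and -0.25 on 430B, and 0.1 and 0.06 with median scaling. Complete switches were few: 12 probe sets on 430A and 5 on 430B lay at 1000 or more in every large antral sample and under 100 in every primordial sample with both sets of values, and 15 and 7 did the reverse.

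The regulatory sequence of the genes at the extremes is shown first, because some transcription factors of the oocyte are themselves among the genes that changed. Of these, FIGLA and SOHLH1 bind the E-box CANNTG, and NOBOX binds TAATTG. Each promoter covers 250 bases before and 50 bases after the annotated start, from RefSeq on build GRCm38.p6, with matches to either motif on either strand in capitals. The largest rise and the largest fall of each array type are printed, with Oog3, the only one whose promoter held TAATTG among the 18 promoters found for the 24 genes with the largest changes.
Obox2 (chr7:15388601-15388900, + strand): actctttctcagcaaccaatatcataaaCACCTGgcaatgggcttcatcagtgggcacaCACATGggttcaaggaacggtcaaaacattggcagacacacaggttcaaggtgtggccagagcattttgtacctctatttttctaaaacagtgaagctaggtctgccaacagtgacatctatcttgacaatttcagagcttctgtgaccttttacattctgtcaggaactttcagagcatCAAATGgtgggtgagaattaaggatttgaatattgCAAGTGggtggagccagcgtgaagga
Gm1070 (chr6:71293515-71293814, + strand): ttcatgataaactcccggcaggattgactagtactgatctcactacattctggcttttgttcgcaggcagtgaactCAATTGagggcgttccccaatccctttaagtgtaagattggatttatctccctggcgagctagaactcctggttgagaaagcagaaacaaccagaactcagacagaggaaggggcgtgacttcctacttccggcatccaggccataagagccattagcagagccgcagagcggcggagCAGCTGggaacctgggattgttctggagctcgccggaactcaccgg
Oog3 (chr4:144162602-144162901, - strand): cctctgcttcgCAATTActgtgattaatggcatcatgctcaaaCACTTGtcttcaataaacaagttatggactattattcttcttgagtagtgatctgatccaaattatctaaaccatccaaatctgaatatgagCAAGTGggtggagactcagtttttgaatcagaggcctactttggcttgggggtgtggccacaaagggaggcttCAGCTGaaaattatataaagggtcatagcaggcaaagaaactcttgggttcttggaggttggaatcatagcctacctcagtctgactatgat
Malat1 (chr19:5802623-5802922, - strand): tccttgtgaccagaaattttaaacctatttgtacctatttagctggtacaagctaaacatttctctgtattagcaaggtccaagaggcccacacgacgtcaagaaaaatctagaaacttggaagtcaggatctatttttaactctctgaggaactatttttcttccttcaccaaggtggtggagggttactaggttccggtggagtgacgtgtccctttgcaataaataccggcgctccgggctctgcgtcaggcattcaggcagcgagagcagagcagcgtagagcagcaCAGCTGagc
Rps3 (chr7:99483660-99483959, - strand): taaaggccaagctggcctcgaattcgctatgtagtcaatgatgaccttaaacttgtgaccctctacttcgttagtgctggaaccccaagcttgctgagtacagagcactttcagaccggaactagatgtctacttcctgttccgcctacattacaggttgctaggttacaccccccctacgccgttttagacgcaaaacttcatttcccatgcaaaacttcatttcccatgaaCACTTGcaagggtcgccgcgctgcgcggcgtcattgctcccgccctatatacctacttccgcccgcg
The table held promoters for 9 of the 12 genes with the largest rises and 9 of the 12 with the largest falls. CANNTG, which reads the same on both strands, occurred in all 9 promoters of rising genes and in 6 of 9 of falling genes, against 72.1% of 27025 promoters in the table. TAATTG occurred in 1 of 9 promoters of rising genes and in 0 of 9 of falling genes, against 8.15% of all. Of the promoters printed, Obox2 held 4 matches to CANNTG, Oog3 held 3, Gm1070 held 2, and Malat1 and Rps3 held 1 each. Over the promoters found, matches numbered 1 to 6 in rising genes and 0 to 2 in falling genes. These are matches of letters and not mapped binding sites.

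Among the largest rises were genes of oocyte-restricted families together with genes better known from other tissues. Obox2, an oocyte-specific homeobox gene whose promoter is printed above, gave 22175, 17111, 16576 and 19206 in large antral samples, against 59.2, 78.5, 68.1 and 86.8 in primordial samples. Its log2 change was 7.48 (SE 0.12, adjusted p = 3.1e-24 by limma), and 7.29 with unmixed values. Every large antral sample lay far above every primordial sample, and probes of this family may also bind transcripts of its near-identical members. Gm1070, for which no function is given here, gave 25322, 26570, 25108 and 24060 in large antral samples, against 58.9, 61.7, 62.2 and 69.4 in primordial samples, a log2 change of 8.06 (SE 0.13, adjusted p = 5.8e-23 by limma). Pabpn1l, a poly(A)-binding protein-like gene of oocytes, gave 17925, 21172, 22652 and 19798 in large antral samples, against 31.7, 407.5, 136.2 and 52.5 in primordial samples. The primordial samples of Pabpn1l were spread over an order of magnitude, and no sample of one stage came near the other. Oog3, an oogenesin, rose by 7.24 (SE 0.29), and Rfpl4, a RING finger protein of oocytes, by 5.23 (SE 0.14).

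The rises outside those families were as clear. Upp1, a uridine phosphorylase, gave 3229, 2573, 2482 and 2602 in large antral samples, against 4.1, 15.3, 5.2 and 7.3 in primordial samples. Cpa1, a carboxypeptidase best known from the pancreas, gave 6288, 5206, 5619 and 6122 in large antral samples, against 16.2, 118, 29.6 and 20.6 in primordial samples. Spry4, an inhibitor of receptor tyrosine kinase signalling, rose by 4.98 on the log2 scale with 4 of 4 probe sets rising. Ehf, an epithelial ETS transcription factor, rose by 5.02, and Myom2, a protein of the sarcomere M-band, by 4.97, in each case with 3 of 4 probe sets rising. Mettl7a2, a methyltransferase-like gene, rose by 5.31 and the unnamed E330016L19Rik by 6.69. In all 12 of these genes the groups did not overlap with either set of primordial values, which was part of how they were chosen.

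**Figure D1:**
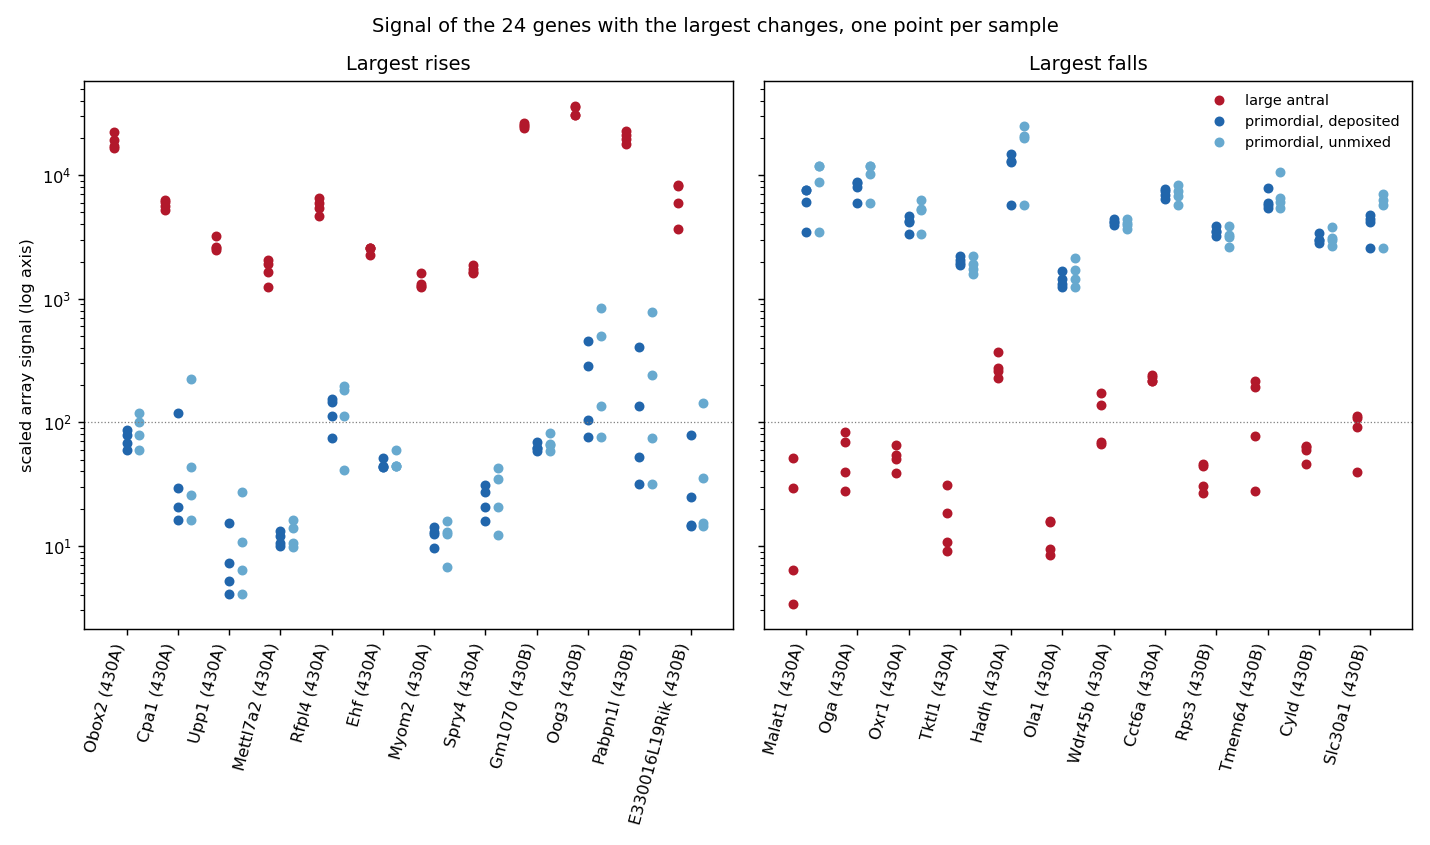
Scaled array signal (log axis) of the 12 genes with the largest rises (left panel) and the 12 with the largest falls (right panel), 1 point per sample, with large antral samples left of primordial samples as deposited and as unmixed; the dotted line marks a signal of 100. In each gene the 4 large antral points lie clear of all primordial points, with Obox2 at 16576 to 22175 in large antral samples against 59.2 to 86.8 in primordial samples as deposited.

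The falls were led by a noncoding RNA and by genes of general cell functions. Malat1, an abundant nuclear noncoding RNA, gave 6.4, 29.3, 51.2 and 3.4 in large antral samples, against 3480, 7527, 6033 and 7546 in primordial samples, and all 7 of its probe sets fell. Its log2 change was -6.85 (SE 0.3, adjusted p = 1.1e-15 by limma), and -7.31 with unmixed values. Oga, the enzyme that removes O-GlcNAc from proteins, gave 28, 83.1, 68.7 and 39.7 in large antral samples, against 5995, 8006, 8772 and 8702 in primordial samples. Of its 5 probe sets 3 fell and 1 rose, so the direction depends on the probe set. Tktl1, a transketolase-like enzyme, gave 31, 10.8, 18.5 and 9.1 in large antral samples, against 2224, 1873, 2047 and 1937 in primordial samples. Hadh, of mitochondrial fatty acid oxidation, gave 227.7 to 373 in large antral samples against 5705 to 14894 in primordial samples, where replicate 1 was the lowest by far.

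Oxr1, of resistance to oxidative damage, the ATPase Ola1, the autophagy gene Wdr45b and the chaperonin subunit Cct6a fell too, with log2 changes of -5.63, -5.02, -4.94 and -4.79 in that order. On 430B, 1 probe set of Rps3, a protein of the small ribosomal subunit, gave 45.6, 30.7, 27 and 44.1 in large antral samples, against 3906, 3239, 3498 and 3558 in primordial samples. Another Rps3 probe set, on 430A, gave 3838 to 4389 in large antral samples against 10037 to 13442 in primordial samples. The same gene therefore had a log2 change of -5.71 or of -1.46 depending on the probe set, and a further probe set was not called. Among the 6853 genes with 2 or more tested probe sets, 876 had probe sets called in opposite directions. Cyld, a deubiquitinase, changed by -5.10 with 4 of 4 probe sets falling, and Tmem64, a membrane protein, by -5.49 with 3 of 3. The zinc exporter Slc30a1 changed by -5.07 with 1 of 2 falling, its other probe set giving 0.29 (adjusted p = 0.17 by limma).

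Described by role, the genes that make the egg coat and the signals sent to granulosa cells rose almost throughout, with 11 of 12 tested members rising and 1 falling (10 and 1 with unmixed values) and a median log2 change of 2.06 (1.86 unmixed), beside 28.4% of all genes rising and a median of -0.04. Gdf9, which encodes a TGF-beta family ligand made by the oocyte, gave 21911, 20445, 19176 and 23683 in large antral samples, against 4336, 6416, 4704 and 5179 in primordial samples. Bmp15, its partner, gave 1361, 1816, 1952 and 1662 in large antral samples, against 109.6, 272.1, 209.1 and 244.2 in primordial samples. Neither gene had overlapping groups, and their log2 changes were 2.05 (SE 0.1) and 2.89 (SE 0.19). Probe sets called with both sets of values and without overlap made up 45.5% on 430A and 23.3% on 430B. Fgf8, a further secreted signal, gave 589.8 to 707.6 in large antral samples against 2.7 to 8.5 in primordial samples, and Bmp6 gave 3542 to 4242 in large antral samples against 312.8 to 374.4 in primordial samples. Oosp3, an oocyte-secreted protein, gave 53171 to 60140 in large antral samples against 2473 to 2912 in primordial samples.

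The 3 zona pellucida genes did not move together. Zp1 gave 11018, 8987, 9686 and 9784 in large antral samples, against 2764, 3230, 2606 and 2660 in primordial samples, a rise of 1.8 (SE 0.1). Zp3, a protein of the coat's filaments, rose by 0.42 (adjusted p = 0.00082 by limma) with deposited values, and with unmixed values the change was 0.23 (adjusted p = 0.17). Zp2, another protein of the filaments, gave 14725, 13930, 14356 and 14831 in large antral samples, against 14967, 25880, 22082 and 25587 in primordial samples, a log2 change of -0.58 (SE 0.12) that became -0.96 with unmixed values and 0.12 after quantile normalization. Primordial replicate 1 lay next to the large antral samples, and replicates 2 to 4 lay well above them.

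Genes of oocyte-restricted multigene families formed the group with the largest median, 3.04 (2.90 unmixed), among the 33 lists described. Of 38 tested members 34 rose and 1 fell (33 and 2 with unmixed values), beside 28.4% of all genes rising and 28.3% falling. Nlrp9c rose by 6.60 and Nlrp9a by 5.44, both of the NLRP proteins of oocytes, and the F-box gene Fbxw19 by 4.66. Oog4 gave 22283, 23784, 27064 and 21162 in large antral samples, against 632, 778.4, 625.7 and 961.7 in primordial samples, and Obox5 gave 27147 to 39022 in large antral samples against 579 to 701.1 in primordial samples. The exceptions were Nlrp4c, with a log2 change of -0.35 (adjusted p = 0.014 by limma), and Obox6, Rfpl4b and Nlrp14, which did not pass the test at -0.64, -0.38 and -0.25. The members of each family share sequence, so their probe sets are not independent measures and may read one another's transcripts.

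The transcription factors of the oocyte moved both ways. Of 19 tested, 7 rose and 9 fell (5 and 8 unmixed, but 8 and 7 unmixed with median scaling), with a median of -0.52, beside 28.3% of all genes falling. Sohlh1, a helix-loop-helix factor needed for primordial follicles to begin growth, gave 556.3, 629.4, 539.4 and 764 in large antral samples, against 36220, 20810, 23313 and 20401 in primordial samples. Its log2 change was -5.24 (SE 0.16, adjusted p = 3.9e-18 by limma) and -4.02 with unmixed values, in which replicates 2 to 4 stood at 5901, 10836 and 5241. Figla, the helix-loop-helix activator of the zona genes, gave 630.5, 591.8, 572.6 and 706.9 in large antral samples, against 10208, 6816, 7840 and 7160 in primordial samples. Both genes were lower in every large antral sample, and in both primordial replicate 1 was the highest. Both were among the falling members of this list with the smallest adjusted p. Calls with both sets of values and no overlap covered 45.5% of all probe sets on 430A and 23.3% on 430B. Taf4b, a germ-line subunit of the general transcription machinery, fell by 1.36, Foxo3, which holds primordial follicles at rest, by 0.94 (with 1 of its 3 probe sets rising and 1 falling), and Lhx8 by 0.64. Nobox, a homeobox factor of early follicles, rose by 0.76 to 4821 to 5785 in large antral samples, against 2484 to 3515 in primordial samples. Pou5f1, the pluripotency factor, rose by 1.08 (1.78 unmixed).

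Of 35 tested genes of meiotic prophase 18 fell and 9 rose (17 and 7 unmixed), with a median of -0.74, beside 28.3% of all genes falling and 28.4% rising. Unmixed values with median scaling gave 13 falling and 9 rising. The structural parts of the synaptonemal complex, which holds paired chromosomes together, were among the lowest. Sycp3 gave 192, 264.9, 287.8 and 238 in large antral samples, against 5072, 6867, 6172 and 6012 in primordial samples, a change of -4.45 (SE 0.16). Sycp1 gave 126.6 to 138.8 in large antral samples against 1730 to 2019 in primordial samples, and Syce3 fell by 5.16. Tex15, of recombination in germ cells, fell by 2.91. The 9 that rose included Msh4, of crossover formation, by 1.32, the repair gene Brca1 by 1.27, and Mei4, of meiotic break formation in the mouse, by 2.71. Mei4 gave 3851, 2298, 2697 and 4727 in large antral samples, against 327.4, 381.2, 671.8 and 580 in primordial samples. Dmc1, the recombinase of meiosis, did not pass the test (0.23, adjusted p = 0.38 by limma).

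The genes that hold the oocyte in arrest and later drive its division rose in 32 of 48 tested members (31 unmixed). The other direction held 6 with both sets of values, and the median was 0.88. These shares of 66.7% and 12.5% stood beside 28.4% and 28.3% of all genes. Mos, the kinase that holds the egg at the second meiotic metaphase, gave 7660, 6961, 6707 and 6874 in large antral samples, against 271.3, 317.3, 248.2 and 164 in primordial samples, a rise of 4.68 (SE 0.13). Bub1b, of the spindle checkpoint, gave 10083 to 11105 in large antral samples against 543.9 to 731.4 in primordial samples. Gpr3, the receptor whose signal keeps cyclic AMP high during arrest, gave 1011, 980.3, 918.3 and 1146 in large antral samples, against 210.1, 150.6, 167.2 and 132.8 in primordial samples. None of these 3 had overlapping groups, and Mos and Bub1b were chosen for a small adjusted p. Calls with both sets of values and no overlap covered 45.5% of all probe sets on 430A and 23.3% on 430B. Akap1, which anchors protein kinase A at mitochondria, rose by 2.90, whereas Prkacb, a catalytic subunit of that kinase, fell by 1.98. Cdk1, the kinase of M-phase entry, fell by 0.43 (adjusted p = 0.00063 by limma), and with unmixed values its change was -0.01 (adjusted p = 0.97).

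Maternal effect genes are those whose products the embryo needs before its own genome is active. Among them 19 of 32 rose and 6 fell (20 and 5 unmixed), with a median of 0.72. These shares of 59.4% and 18.8% stood beside 28.4% and 28.3% of all genes. H1f8, the linker histone of oocytes, gave 5465, 4482, 4283 and 4220 in large antral samples, against 290.3, 168, 192.6 and 183.8 in primordial samples. Zar1, an RNA-binding protein, gave 41553 to 43843 in large antral samples against 7116 to 13071 in primordial samples. Btg4, an adaptor for removal of poly(A) tails, gave 14667 to 16499 in large antral samples against 2083 to 2556 in primordial samples. Nlrp5, of the subcortical maternal complex, gave 14933, 13555, 13271 and 13456 in large antral samples, against 18657, 24194, 21942 and 22545 in primordial samples. Its log2 change of -0.66 (-0.87 unmixed) became 0.03 after quantile normalization. Dppa3, which shields the maternal genome from loss of methylation, changed by -0.54 (adjusted p = 0.00065 by limma), and by -0.29 with unmixed values (adjusted p = 0.16).

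Among genes of DNA methylation and imprint protection 7 of 20 rose and 4 fell (6 and 3 unmixed), shares of 35.0% and 20.0% near the 28.4% and 28.3% of all genes. Dnmt3l, the cofactor required for methylation to be laid down in the growing oocyte, gave 751.4, 807.9, 866.8 and 804.6 in large antral samples, against 35.5, 36, 34.1 and 33.8 in primordial samples. Zfp57, a zinc finger protein that protects imprints, gave 1352 to 1691 in large antral samples against 44.5 to 62.6 in primordial samples. Dnmt3b fell by 0.50 and Dnmt1, the maintenance enzyme, did not pass the test (-0.23, adjusted p = 0.28 by limma), with unmixed values at -0.71 (adjusted p = 0.028). The oxidising enzyme Tet3 rose by 2.5 and the demethylase Kdm1b, needed for imprints to be set, fell by 1.01. Of the Polycomb and Trithorax genes 21 of 36 rose and 9 fell, with Kdm6b rising by 3.67, Pcgf1 by 3.50 (4.44 unmixed) and Pcgf5 changing by -2.12.

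Small RNA and mRNA regulators showed opposite changes within a pathway. Piwil2, a PIWI protein of the germ line, gave 85.5, 101.3, 110.7 and 94.3 in large antral samples, against 3744, 2654, 2995 and 2660 in primordial samples. Ddx4, the germ-cell helicase also called Vasa, gave 425 to 843.6 in large antral samples against 2428 to 3001 in primordial samples. Tdrd12, a Tudor protein of the same pathway, gave 10291, 13880, 14256 and 11166 in large antral samples, against 2083, 2236, 1744 and 1938 in primordial samples. Over the piRNA list 10 of 22 rose and 9 fell, with unmixed values the same counts. The shares, 45.5% and 40.9%, stood beside 28.4% and 28.3% of all genes. Dazl, a germ-cell translation regulator, rose by 0.38 (adjusted p = 0.02 by limma).

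Among genes that store maternal mRNA 12 of 31 rose and 13 fell (12 and 15 unmixed). With median scaling 14 rose and 9 fell (15 and 8 unmixed). Deposited shares were 38.7% and 41.9% here and 44.7% and 36.8% in the decay list below, beside 28.4% and 28.3% of all genes. Ddx6, a helicase of stored mRNA particles, gave 300.4, 511.7, 476.6 and 490.8 in large antral samples, against 5341, 7558, 7078 and 7650 in primordial samples, with 3 of 4 probe sets falling. Pabpc1, the general poly(A)-binding protein, fell by 2.99, while Pabpc1l, its oocyte counterpart, gave 4277 to 5475 in large antral samples against 749.2 to 911 in primordial samples. Patl2, an RNA-binding protein of oocytes, rose by 2.18, and Fmr1, a regulator of translation, fell by 3.14. In the deadenylation and decay list 17 of 38 rose and 14 fell, with Cnot11, of the CCR4-NOT complex, rising by 2.09 and Parn, a poly(A) nuclease, falling by 0.96.

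**Figure D2:**
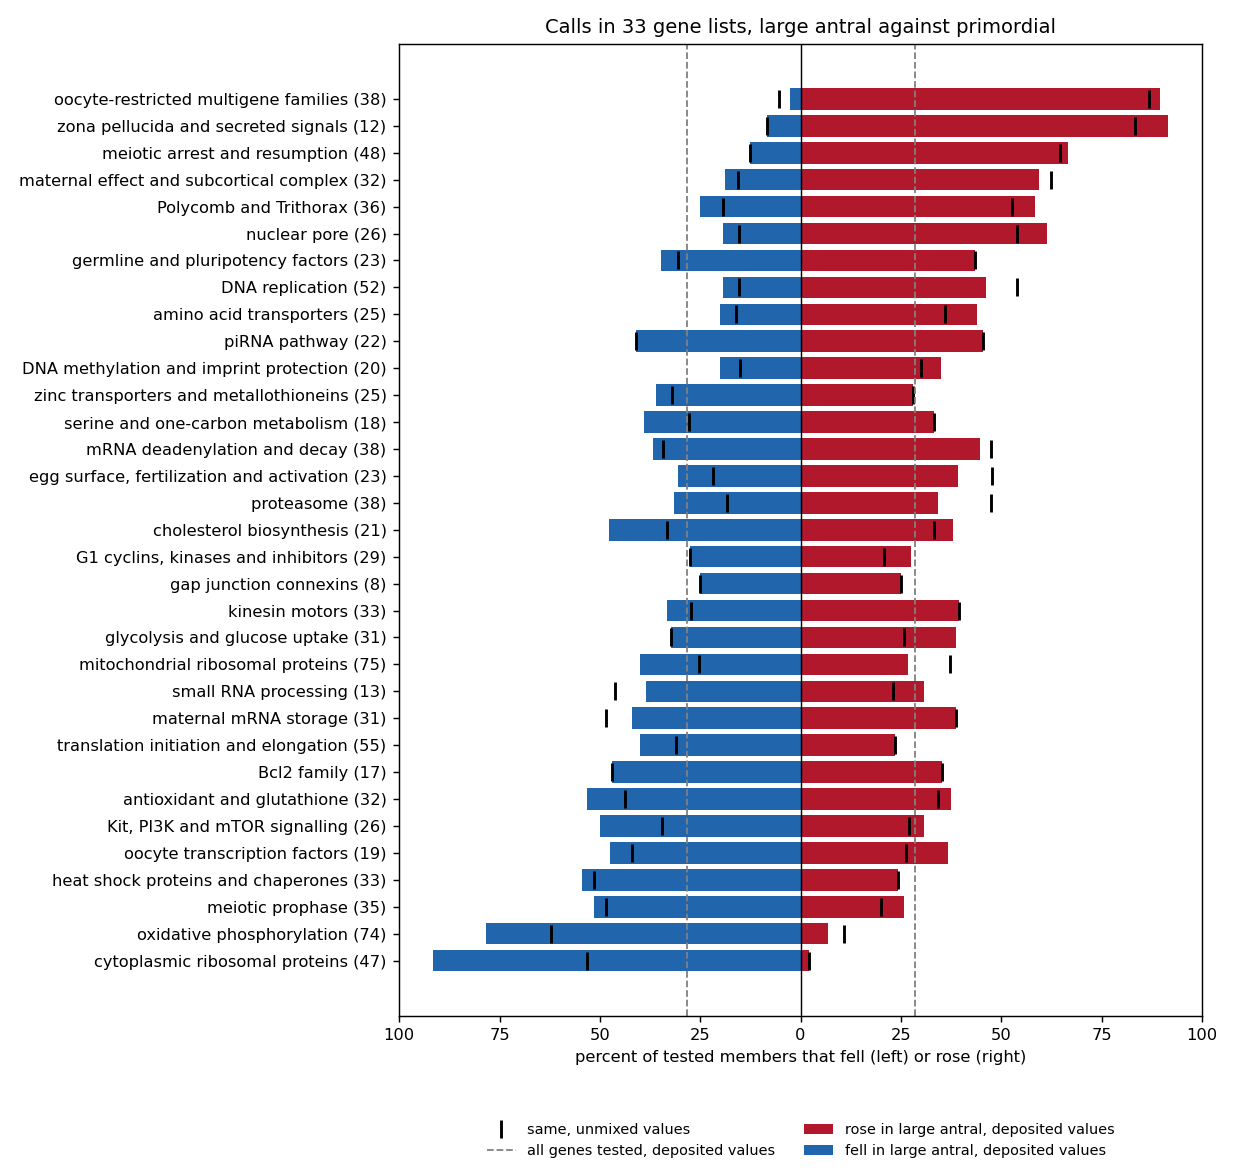
Percent of tested members that rose (right, red) or fell (left, blue) in large antral samples against primordial samples for 33 gene lists, with the number tested in parentheses; black ticks give the same from unmixed values and dashed lines give the 28.4% and 28.3% of all genes that rose and fell. The multigene families stand at 34 of 38 rising and the cytoplasmic ribosomal proteins at 43 of 47 falling, or 25 of 47 with unmixed values.

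Genes of oxidative phosphorylation fell in 58 of 74 tested members, with 5 rising and a median of -1.07, and in 46 with 8 rising and a median of -0.78 in unmixed values, beside 28.3% and 23.1% of all genes falling. Unmixed values with median scaling gave 39 falling and 11 rising. By complex, 27 of 34 subunits of complex I fell (22 unmixed). In complex III 7 of 9 fell (6 unmixed), and in complex IV 8 of 9 (8 unmixed). Of 17 subunits of complex V, the ATP synthase, 14 fell with deposited values, and 8 fell and 2 rose with unmixed values. Ndufa1, of complex I, gave 5381, 5324, 5209 and 5520 in large antral samples, against 20357, 22444, 21014 and 23206 in primordial samples. Atp5g3, of the ATP synthase rotor, gave 3243, 3381, 3498 and 3489 in large antral samples, against 15079, 14700, 16143 and 15873 in primordial samples. In both genes all large antral samples lay below all primordial samples as deposited. The 2 genes were chosen for a small adjusted p, so this separation follows from the choice. Among the 5 that rose were Ndufb1 by 1.54 and Ndufa8 by 0.84, and of the 4 subunits of complex II, which also works in the citric acid cycle, 2 rose and 2 fell, with Sdha rising by 0.67.

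Cytoplasmic ribosomal protein genes fell in 43 of 47 tested members with deposited values, with a median of -1.25, and in 25 with unmixed values, with a median of -0.72. Unmixed values with median scaling gave 20 falling and 2 rising. Over all genes 28.3% fell with deposited values and 23.1% with unmixed values. The size of the shift differed among the primordial arrays: the list median was -1.39, -0.33, -0.90 and -0.12 against unmixed primordial replicates 1 to 4. All 22 proteins of the small subunit fell, 16 of them with unmixed values, and of 25 of the large subunit 21 fell, 9 with unmixed values. Rps20 gave 4239, 3691, 3567 and 3423 in large antral samples, against 12370, 15688, 14558 and 15828 in primordial samples, and Rps28 fell by 1.8. Rpl12 was the 1 member that rose, by 0.47, and with unmixed values its change of 0.11 did not pass the test. Rpl37a fell by 2.62, although 1 of its 3 probe sets rose.

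Of 75 mitochondrial ribosomal proteins tested, 20 rose and 30 fell with deposited values, and 28 rose and 19 fell with unmixed values, so the list median turned from -0.13 to 0.33 between the 2 sets of values, and it was 0.05 with median scaling. With median scaling the multigene families stood at 3.31, oxidative phosphorylation at -0.88 and the cytoplasmic ribosomal proteins at -1.06. Mrps25, of the small mitochondrial subunit, gave 2951 to 3537 in large antral samples against 620.8 to 852.5 in primordial samples, and Mrps34 gave 182.8 to 210.7 in large antral samples against 803.7 to 938.4 in primordial samples. Both held with unmixed values, at 2.55 and -1.90. Of 55 genes named for translation initiation and elongation 13 rose and 22 fell with a median of -0.24, and with unmixed values 13 rose and 17 fell with a median of 0.08, beside 28.4% and 28.3% of all genes. With median scaling 18 rose and 18 fell, and 19 and 12 with unmixed values. Eif4ebp1, the repressor of cap-dependent translation that mTOR inactivates, gave 200.7, 165.3, 236 and 196.3 in large antral samples, against 5701, 5992, 5344 and 5029 in primordial samples. Eif2b4, a subunit of the exchange factor for eIF2, gave 5180 to 5335 in large antral samples against 1109 to 1332 in primordial samples.

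**Figure D3:**
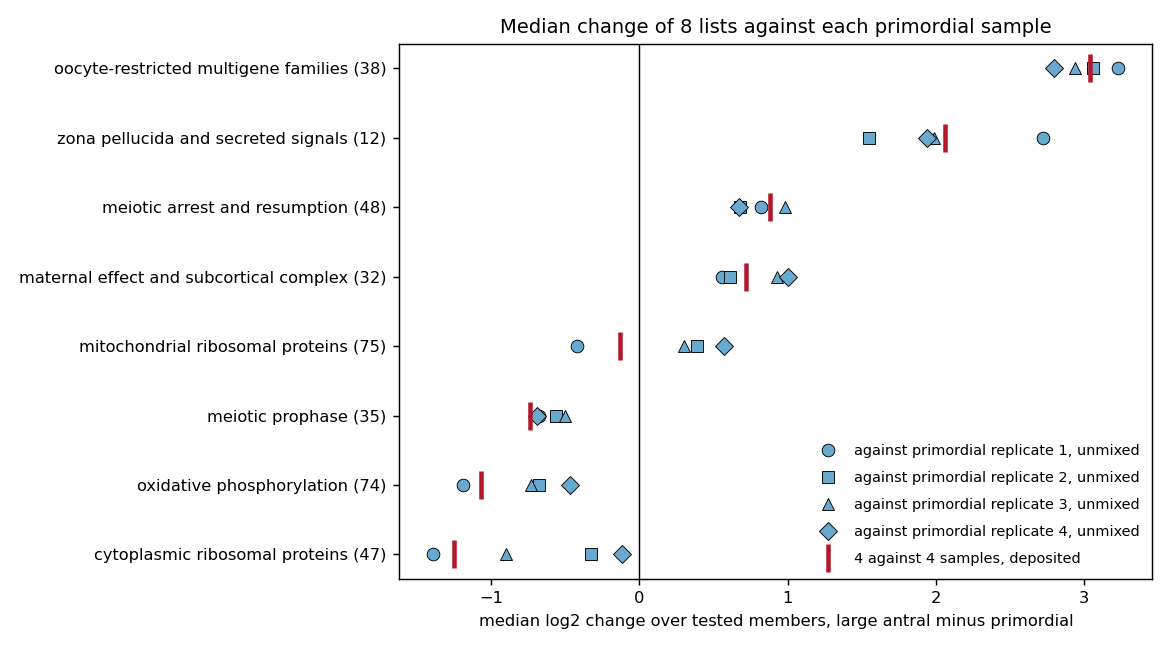
Median log2 change of 8 gene lists, large antral minus primordial, with the deposited values of 4 against 4 samples as red bars and the mean of the large antral samples against each unmixed primordial sample as blue symbols. Cytoplasmic ribosomal proteins run from -1.39 to -0.12 over the 4 primordial samples and mitochondrial ribosomal proteins from -0.42 to 0.57, while the multigene families stay between 2.80 and 3.23.

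The signalling that wakes primordial follicles runs from the receptor Kit through PI3 kinase, AKT and FOXO3 to mTOR. Of 26 tested genes of this pathway 8 rose and 13 fell (7 and 9 unmixed), with a median of -0.35. With median scaling 10 rose and 9 fell (10 and 7 unmixed). Over all genes 28.4% rose and 28.3% fell with deposited values (26.6% and 23.1% unmixed). Pik3cd, a catalytic subunit of the kinase, gave 1850 to 2622 in large antral samples against 312.2 to 480 in primordial samples, Foxo1 rose by 1.82 and Akt1 by 1.03. Kit itself gave 3166, 3574, 3456 and 2974 in large antral samples, against 5749, 3916, 4410 and 3876 in primordial samples, a fall of 0.43 (adjusted p = 0.018 by limma). With unmixed values its primordial replicates 2 to 4 stood at 2231, 3184 and 2195, the change was 0.09 and the groups overlapped. Rheb, the activator of mTOR, fell by 0.76.

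Genes of DNA replication rose in 24 of 52 tested members, beside 10 that fell (28 and 8 unmixed), against 28.4% and 28.3% of all genes (26.6% and 23.1% unmixed). Tk1, a thymidine kinase, gave 1210, 1330, 1522 and 1388 in large antral samples, against 455, 341.8, 322.7 and 331.4 in primordial samples. Rfc4, of the clamp loader, gave 195.3 to 242 in large antral samples against 2205 to 2736 in primordial samples. The 2 genes moved far apart within one list, by 1.83 and by -3.34. Nuclear pore genes rose in 16 of 26 and fell in 5, with Nup50 rising by 2.11 and Nup133 changing by -2.36. Cyclins, kinases and inhibitors of G1 rose in 8 of 29 and fell in 8, close to the share of all genes (10 and 6 with median scaling), with Ccnd2 rising by 1.88 in 5 of 5 probe sets and the inhibitor Cdkn1a changing by -1.56.

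In metabolism and protection from stress each list held genes that moved both ways. The shares of all genes were 28.4% rising and 28.3% falling (26.6% and 23.1% unmixed). Glycolysis genes, at 38.7% and 32.3% with deposited values, lay near them. Of glycolysis genes 12 of 31 rose and 10 fell (8 and 10 unmixed): Pgk1, phosphoglycerate kinase, gave 3158 to 4270 in large antral samples against 12827 to 18145 in primordial samples, and Tpi1 rose by 0.85 in 3 of 3 probe sets. Psat1, of serine synthesis, gave 25.6, 32.3, 37 and 32 in large antral samples, against 1011, 922.2, 1068 and 1043 in primordial samples, while Cth, of cysteine synthesis, gave 535.9 to 654.8 in large antral samples against 41.6 to 73.4 in primordial samples. Of antioxidant genes 12 of 32 rose and 17 fell (12 and 10 unmixed with median scaling). Sod2, the mitochondrial superoxide dismutase, gave 1934 to 2157 in large antral samples against 6303 to 7338 in primordial samples. Glrx, glutaredoxin, gave 5508 to 6133 in large antral samples against 498.6 to 693.1 in primordial samples, and Prdx2, a peroxiredoxin, rose by 2.23. Of chaperones 8 of 33 rose and 18 fell, with Hspa1b, an inducible HSP70, rising by 2.90 and Cct4, of the chaperonin ring, changing by -1.91.

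The Bcl2 family, which sets the balance of cell death and survival, held large changes in both directions. Mcl1, which protects primordial oocytes in the mouse, gave 576.9, 643.7, 603.9 and 787.4 in large antral samples, against 4100, 4057, 4187 and 4201 in primordial samples, with all 6 probe sets falling. Bcl2l10, a member abundant in oocytes, gave 22709, 19729, 19490 and 21240 in large antral samples, against 2198, 4659, 4227 and 4854 in primordial samples. Bid, which promotes cell death, gave 6.4 to 9.4 in large antral samples against 243.9 to 379.6 in primordial samples. Over the list 6 of 17 rose and 8 fell with both sets of values, and with median scaling 7 rose and 5 fell. Deposited shares of 35.3% and 47.1% stood beside 28.4% and 28.3% of all genes. Among zinc transporters the importer Slc39a10 gave 20329 to 24158 in large antral samples against 2998 to 3601 in primordial samples. The exporter Slc30a1, given above, fell in 1 of 2 probe sets. Others of the 2 families went the opposite way: Slc30a3 and Slc30a5 rose, and Slc39a1 and Slc39a11 fell. Of all 25 zinc transporters and metallothioneins tested, 7 rose and 9 fell, shares of 28.0% and 36.0% near those of all genes, and with median scaling 10 rose and 7 fell.

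The connexins form the channels between oocyte and granulosa cells. Of 8 tested 2 rose (Gja4 and Gja1) and 2 fell (Gjc1 and Gja10) with both sets of values. The other 4 were not called with deposited values. With median scaling 2 rose and 1 fell. Over all genes 28.4% rose and 28.3% fell with deposited values. Gja4, the connexin of the oocyte side, gave 8213, 7483, 6763 and 7347 in large antral samples, against 1512, 1208, 1218 and 1196 in primordial samples. Gja1, the connexin of granulosa cells and one of the 7 granulosa markers that rose, gave 784, 808.9, 852 and 876.9 in large antral samples, against 81.9, 72.7, 106.7 and 45.2 in primordial samples, with all 5 probe sets rising. Esr2, an oestrogen receptor of granulosa cells, gave 366.6 to 465.4 in large antral samples against 20.3 to 99.2 in primordial samples. The other granulosa markers that rose were Inha, Inhbb, Hsd17b1, Nr5a1 and Nr5a2, while Foxl2, Fshr, Kitl and Amhr2 did not pass the test. The part of attached granulosa cells in these values was not tested.

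The stages between were used to place each change. Primary oocytes came from females at 6 days of age in pools of 90, secondary oocytes at 12 days in pools of 60, and small antral oocytes on 430A at 17 days in pools of 30. On 430B, 1 small antral sample is labelled 17 days and 30 oocytes and the other 3 carry the 12 days and 60 oocytes of the secondary stage. Small antral values on 430B therefore rest on samples whose titles and protocols disagree. Of 2189 probe sets on 430A that rose at least 2-fold with both sets of values, 69.9% had crossed the midpoint of their log2 range by the primary stage, 18.5% first did so at the secondary stage, 9.59% at the small antral stage and 2.01% only at the large antral stage. Of 2428 that fell at least 2-fold, the shares were 64.9%, 16.6%, 16.2% and 2.27%. On 430B the share already past the midpoint at the primary stage was 68.3% for rises and 68.0% for falls. These shares too cannot be told apart from age and pool size. Mos stood at 250.2 in primordial, 6025 in primary, 9141 in secondary and 7526 in small antral samples before its 7050 in large antral samples. Gja1 stood at 76.6 in primordial, 60.8 in primary, 72.5 in secondary and 291.2 in small antral samples, against 830.5 in large antral samples. Sycp3 had fallen to 1191 by the primary stage.

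**Figure D4:**
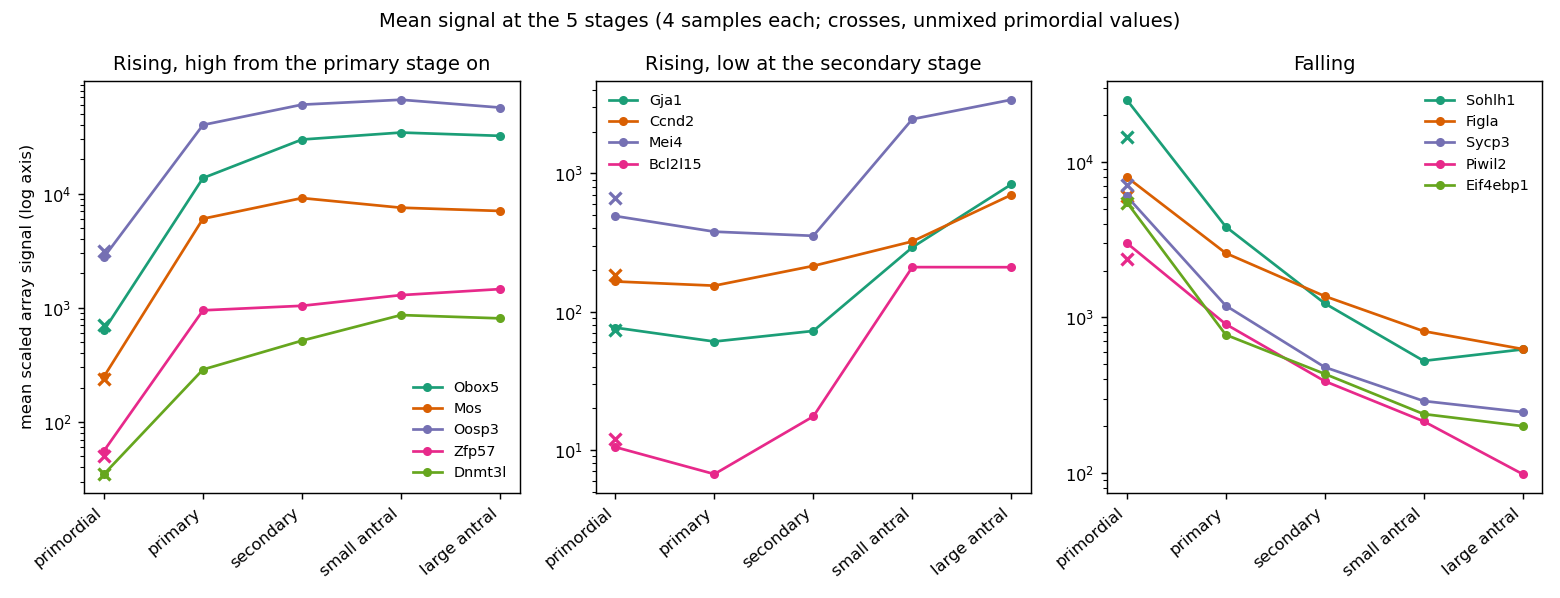
Mean scaled signal (log axis) at the 5 follicle stages for genes that were high from the primary stage on (left), genes still low at the secondary stage (middle) and genes that fell (right), 4 samples a stage by title, with crosses for the unmixed primordial mean; Obox5, Oosp3, Mei4 and Sohlh1 are from 430B. Dnmt3l and Mos had left their primordial level by the primary stage, whereas Gja1 stood at 72.5 at the secondary stage and Sohlh1 fell at each step to small antral.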

How the data were processed

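Total RNA of pooled mouse oocytes was amplified and hybridised to Affymetrix 430A and 430B arrays. The deposited values are linear MAS5 signal intensities, per the submitters' processing notes. The array types were analysed apart. Each array was scaled here to a trimmed mean of 500 (2% trimmed at each end). Control probe sets, and 100 further 430A probe sets off the 0.1 grid, were left out. The model was limma's linear fit with moderated variances (version 3.58.1, under R 4.3.3), on log2 of signal plus 32, over the 20 arrays of a type, for probe sets at 100 or more on at least 4 arrays. The Benjamini-Hochberg threshold was 0.05. Unmixed values replaced primordial replicates 2 to 4 by the doubled value minus replicate 1. The number of arrays limits the precision. Each p-value sets the difference between the 2 stages against a moderated variance, drawn from the spread among replicates of all 5 stages. With deposited values this includes the primordial replicates, whose spread is too small if they are mixtures.

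Probe sets were named from the platform annotation: a single symbol was given to 20284 of 22526 on 430A and 14565 of 22411 on 430B, more than one to 687 and 241, and no symbol to 1555 and 7605. A gene in a list was read from 1 probe set, from 430A before 430B and then by the highest mean. Named genes were first the 8 largest rises and falls on 430A and the 4 on 430B, called with both sets of values without overlap. Added were up to 3 members per list and direction with the smallest adjusted p, and key genes given always. Other members are named as exceptions to a count. Members and lists were chosen with earlier results of these data known. Replicate numbers were not used to pair the samples. Deviations of same-numbered samples correlated weakly on 430A, at 0.119, 0.006, 0.062 and 0.115, against -0.099 to 0.032 for unlike numbers. On 430B the same-numbered values were -0.009 to 0.003. The fit was tested on simulated data, and 22 alternative settings were run.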

Additional observations from a re-analysis of the deposited data

Results flagged for a closer look

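In 430 groups of 4 values, for the genes named by rule, 17 had a highest or lowest sample whose gap to the nearest other sample, divided by the whole range, exceeded Dixon's critical value. Chance alone flags about 5% of groups. In large antral samples Ehf was low in replicate 4 at 2252, Dppa3 high in replicate 1 at 10657, Ddx6 low in replicate 1 at 300.4 and Hspa1b low in replicate 1 at 1346.

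Among the primordial values after unmixing, replicate 1 stood apart in 8 genes. It was low for Hadh at 5705, Lhx8 at 4797, Oosp3 at 2473, Rbl1 at 228.3, Cat at 367.4 and Bcl2l10 at 2198. It was high for Eif2b4 at 1332 and Gja4 at 1512. Replicate 2 was high for Cnot8 at 1358 and Phc2 at 1855 and low for Slc39a1 at 397.7. Replicate 4 was high for Ehf at 60.2 and low for Fmr1 at 964.8.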

How the results depend on the processing

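The count of called probe sets, 10235 on 430A and 7342 on 430B, stayed within 1.5 times of these values under 20 of the alternatives on both array types. The exceptions were on 430B, where unmixed values gave 4543 with the 8 arrays of these stages alone and 4690 with array weights; the cause was not tested. Leaving out each replicate in turn gave 9779 to 9985 on 430A and 6438 to 6918 on 430B, 776 to 797 called list members against 803, and 210 to 213 called named genes against 213 of 215. With the replicate number as a block the counts were 10200 on 430A and 7289 on 430B, and the block ended no call among the named genes. Directions turned for few named genes. Quantile normalization turned Zp2 to 0.12, Nlrp5 to 0.03, Dnmt1 to 0.38, Pttg1 to 0.04 and Rpa1 to 0.24. Kit was 0.09 with unmixed values, 0.09 with the 8 arrays alone, 0.25 with array weights, 0.33 with median scaling, 0.39 without primordial replicate 1 and 0.09 with the replicate block, all on unmixed values. Cdk1, also on unmixed values, was 0.06 with array weights, 0.23 with median scaling and 0.24 without primordial replicate 1. The cause was not tested. Low signals limit the fold of switched-off genes, since values near the added 32 shrink towards 0.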

Other observations

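Some genes were alike at both ends and differed between them. Of 4113 probe sets on 430A whose large antral and primordial levels lay within 0.5 on the log2 scale and were not called, 54 stood at least 2-fold above both ends at an intermediate stage and 37 at least 2-fold below. On 430B these were 64 and 56 of 6375, counting a small antral stage in which 3 of 4 samples carry the age and pool size of the secondary stage. The genes named here were chosen after their values were seen. Hmga2, a chromatin protein of growing and embryonic cells, averaged 629.2 in large antral samples and 629.9 in primordial samples, with 3178 in primary and 1491 in secondary samples. Khdc3, a protein of the subcortical maternal complex, averaged 7110 in large antral samples and 7699 in primordial samples, with 26509 in primary samples.

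Dips occurred as well. Ldha, lactate dehydrogenase A, averaged 209 in large antral samples and 229.3 in primordial samples, with 14.5 in primary and 29.7 in secondary samples. Man1a, a mannosidase of the Golgi, averaged 439.8 in large antral samples and 530.9 in primordial samples, with 46.2 in secondary samples.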
